A study of Homo sapiens with 2 samples.

Results

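Tandem poly(A) sites are pairs of neighbouring cleavage sites on the same strand, less than 500 nt apart, so that transcripts of the same locus can end at either one. They were found from the positions alone: all sites of both libraries were joined, and a site was kept when its nearest other site on the same chromosome and strand lay under 500 nt away. Of 9004 sites, 3136 (34.8%) were kept, and they formed 1699 neighbouring pairs. In each pair the upstream site is called proximal and the downstream site distal.

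A transcript is cleaved at a poly(A) site and then receives its poly(A) tail, which the cytoplasmic poly(A)-binding proteins coat. Where a gene has tandem sites, the choice between them sets the length of the 3′ end of the mRNA, while the tail is added after the cut. Both steps can be followed for each pair, through the proximal share (reads at the proximal site as a percent of the reads of both sites) and the tail length of the reads ending at each site.

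The cells were HCT116, a human colon cancer line, measured by direct RNA sequencing on nanopores, where unamplified RNA strands are read together with their tails. In all cells the endogenous PABPC1 and PABPC4, both cytoplasmic poly(A)-binding proteins, carried a degron tag (mAID), by which indole-3-acetic acid (IAA) triggers their removal. The cells were polyclonal and carried multiple copies of a Sleeping Beauty transposon that expresses either PABPC1 or PABP1212, a PABPC1 with its RNA-recognition domains RRM1 and RRM2 duplicated; each transgene gave 1 library. After 13 days in 1 μg/mL doxycycline and 0.5 mM IAA, cells were sorted by transgene expression into 4 gates of 25% of the cells each, called here the lowest, second-lowest, second-highest and highest level, and untreated, unsorted cells (uninduced) were sequenced beside them. Each library thus had 5 subsamples and each level was 1 observation, so spread is that between levels and may be technical. The transgene cannot be told apart from the library, and uninduced cells differ from sorted ones in doxycycline, IAA, sorting and barcodes.

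Depth ranged from 65862 to 630986 reads per subsample, and 20.6% to 23.1% of the reads ended at tandem sites. That percentage was highest at the lowest level in both libraries, at 22.0% with PABPC1 and 23.1% with PABP1212, against 20.9% and 20.6% in uninduced cells. Within 25 nt of a transcript end of the GENCODE v29 annotation of hg38 lay 2.30% of the tandem sites, close to the 2.67% of all sites, and on 12 chromosomes the last site lay beyond the last annotated transcript end. The positions thus do not match hg38, the build that the submitters' processing notes name. They are printed as the files give them, which build they follow could not be settled here, and no gene or sequence was read from them. That the members of a pair belong to the same gene could not be checked.

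The 1699 pairs linked into 1437 groups, of which 191 held 3 sites, 32 held 4, 1 held 5 and 1 held 6, and all others held 2. Distances ran from 25 to 499 nt, with a median of 120 nt and quartiles of 56 and 251 nt. Short distances were common: 382 pairs (22.5%) lay 25 to 49 nt apart, 373 (22.0%) 50 to 99 nt, 381 (22.4%) 100 to 199 nt and 563 (33.1%) 200 to 499 nt. No listed site lay nearer than 25 nt to another one on its strand, and 41 pairs lay at exactly 25 nt. At the limit of the rule, 14 pairs lay at 490 to 499 nt and 14 just outside, at 500 to 509 nt.

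Among the chromosomes, the percentage of sites with a tandem neighbour was lowest on chromosome 19 (24.3%) and highest on chromosome 13 (45.9%, 84 of 183 sites). More pairs lay on the plus strand (981) than on the minus strand (718). The strands of all sites were not counted, so this cannot be called particular to tandem pairs.

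The site that was used less in a pair still held a sizeable part of its reads. Of the 565 pairs with 200 or more reads over all 10 subsamples, 2 had a minor site with under 10% of the reads; the lowest minor share was 9.56% and the median 26.6%. Further apart, 0 of 35 pairs were under 10% at 500 to 599 nt and 0 of 108 at 600 to 999 nt, while of 272 pairs at 1000 to 4999 nt, 5 were under 10%. How the sites were selected is not given in the sources used here, so rarely used sites beside a main one were not analysed here.

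With at least 20 reads in each of the 10 subsamples, 97 of the 1699 pairs could be compared, of which 82 shared no site with another pair. The shallower PABPC1 library set this number, since 327 pairs reached the minimum in the 5 PABP1212 subsamples. The compared pairs are thus the abundant ones.

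Use of the proximal site differed widely between pairs, and its median over pairs lay between 61.5% and 66.1% in all subsamples. In uninduced cells the median proximal share of the 97 pairs was 65.3% in the PABPC1 library and 65.9% in the PABP1212 library. In rising order of PABPC1 level the medians were 62.9%, 61.8%, 61.5% and 62.9%. In rising order of PABP1212 level they were 65.1%, 64.0%, 65.1% and 66.1%. The quartiles over pairs were 32.9% and 82.7% at the highest PABP1212 level.

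**Figure D1:**
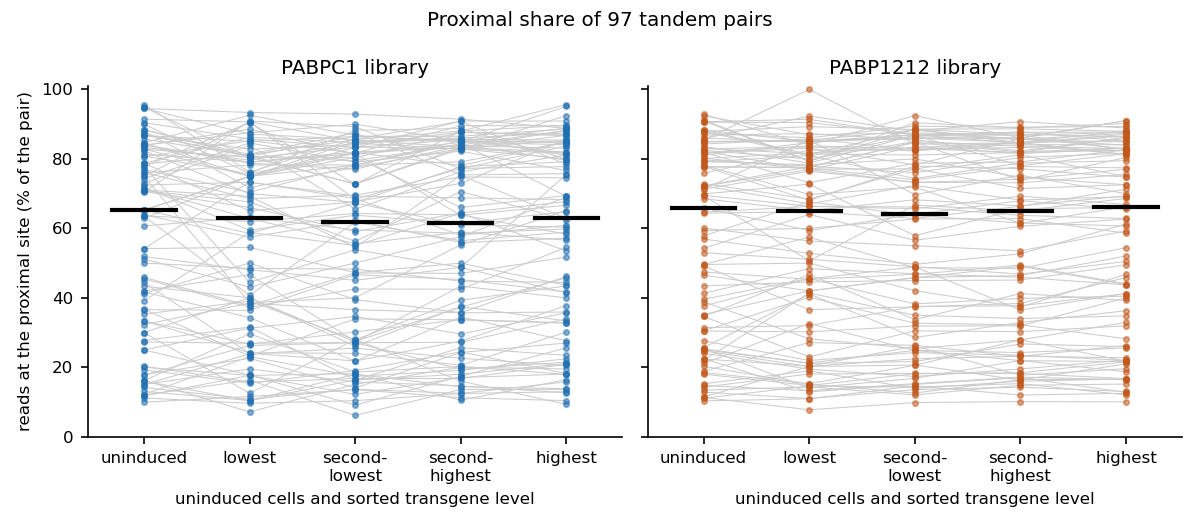
Reads at the proximal site as a percent of the reads of the pair, in uninduced cells and at the 4 sorted levels of each library, for 97 tandem pairs. Each point is 1 pair, grey lines join the same pair and black bars are medians; the medians lie between 61.5% and 66.1%, and single pairs lie between 6.12% and 100%.

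The preferred site seldom changed. In 85 of the 97 pairs (87.6%) the same site held more than 50% of the reads in all 10 subsamples, the proximal one in 53 and the distal one in 32. Among 58 pairs 500 to 4999 nt apart that passed the same minimum, this held for 46 (79.3%); the difference was not tested. Among the 327 pairs of the PABP1212 library it held for 279 (85.3%) in 5 subsamples.

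The uninduced cells of the libraries, which had no treatment, give the scale of differences that arise without any change of level. Between them the share of a pair differed by a median of 4.79 percentage points, with a median binomial standard error of 7.33 points. Between the lowest and the highest level the median difference was 5.15 points with PABPC1 and 3.04 points with PABP1212. The median standard errors were 8.27 and 4.84 points. Counting error alone puts a median absolute difference below the standard error. Beyond the 95% range of counting error lay 7 of 97 pairs between the uninduced cells, 8 between the PABPC1 levels and 9 between the PABP1212 levels.

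Pooled over the reads of the 97 pairs, the proximal share was slightly higher at each successive level in both libraries. This rise was not tested. The pooled proximal share in uninduced cells was 59.0% (95% Clopper-Pearson interval 57.9% to 60.1%, counting error only) in the PABPC1 library and 59.0% (58.4% to 59.7%) in the PABP1212 library. At the lowest level it was 57.0% (55.8% to 58.2%) with PABPC1 and 56.8% (56.0% to 57.7%) with PABP1212. At the second-lowest and second-highest levels it was 58.6% and 59.5% with PABPC1, and 57.8% and 58.6% with PABP1212. At the highest level it was 59.9% (59.0% to 60.9%) with PABPC1 and 58.7% (58.3% to 59.0%) with PABP1212. Pairs with many reads weigh most in the pooled value, and the lowest level lay below the other subsamples in both libraries.

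In a limma model of the log2 ratio of proximal to distal reads, fitted over all 155 neighbouring pairs under 5000 nt apart, no tandem pair had a trend over the levels at a Benjamini-Hochberg adjusted p under 0.05. For PABPC1 the count was 0 of 97, with 7 at an unadjusted p under 0.05, where 1.29% of all pairs tested were called; for PABP1212 it was 0 of 97, with 7 unadjusted, where 1.94% were called. The median trend of the tandem pairs was 0.08 log2 per level for PABPC1 (median standard error 0.22) and 0.05 for PABP1212 (0.12). Over all pairs tested the medians were 0.03 and 0.04. Of the 97 tandem pairs, 62 had a positive and 35 a negative trend with PABPC1, and 60 and 37 with PABP1212. Of all 155 pairs, 87 were positive and 68 negative with PABPC1, and 93 and 62 with PABP1212. For the difference between the trends, limma called 0 of 97 tandem pairs (2 unadjusted; 0% of all pairs tested).

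Sorted against uninduced cells, limma also called 0 of 97 tandem pairs in either library. Unadjusted p-values were under 0.05 for 6 pairs with PABPC1 (0% of all pairs called) and for 10 pairs with PABP1212 (1.29% called). The median change of the log2 ratio was -0.12 with PABPC1 and -0.01 with PABP1212, with median standard errors of 0.58 and 0.34.

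Across levels, the slope of the median proximal share was -0.0201 percentage points per level for PABPC1 (two-sided exact permutation p = 1) and 0.390 for PABP1212 (exact p = 0.5), where 4 levels allow no p below 0.0833. Permuting the levels of both libraries together gave p = 0.462 (exact) for a mean slope of 0.185. With only pairs 100 nt or more apart, the mean slope was 2.47 points per level (exact permutation p = 0.0104), from 4.23 for PABPC1 (exact p = 0.0833) and 0.714 for PABP1212 (exact p = 0.25). Data were also simulated with the read numbers of all 155 pairs and an assumed spread between subsamples, with a trend placed in 50 pairs. The fit recovered 0% of PABP1212 trends of 0.2 log2 per level, 76% of trends of 0.5 and 100% of trends of 1. For PABPC1 it recovered 0%, 0% and 76%. Where fewer pairs change, the adjustment is stricter and recovery would be lower. In these simulated data, trends of 0.5 log2 per level were thus not recovered at the depth of the PABPC1 library. In the fit to the measured reads, the PABPC1 trend of the tandem pairs had a median standard error of 0.22 log2 per level. In the 6 pairs with the most reads it was 0.08 to 0.12, so the simulated result may not hold for them.

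Among the 6 pairs with the most reads, those on chromosomes 16, 2, 6 and 17 varied little in their share. Those on chromosomes 13 and 19 are described with their tails below. There the proximal share was lower at each successive level in both libraries, though no trend was called. It ranged from 86.3% to 94.5% and from 62.8% to 73.3% over the subsamples. On chromosome 16, minus strand, sites 2012024 (proximal) and 2011999 (distal) lie 25 nt apart and had 14390 reads. Their proximal share was 86.8% in uninduced cells and 85.0%, 86.5%, 86.5% and 88.6% in rising order of PABPC1 level. With PABP1212 it was 88.3% uninduced and 85.0%, 87.0%, 86.8% and 87.6% over the levels, with 95% Clopper-Pearson intervals at most 9.14 points wide in any subsample. The lowest level had the lowest share in both libraries, but the trend was not called (0.14 ± 0.10 and 0.08 ± 0.05 log2 per level, estimate ± SE, limma with Benjamini-Hochberg adjusted p = 0.75 and 0.533).

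On chromosome 2, plus strand, sites 85133795 and 85133820 are also 25 nt apart, with 13142 reads. The proximal share was 84.0% in uninduced cells of the PABPC1 library and 79.0%, 81.6%, 84.7% and 84.1% over its levels. The PABP1212 library gave 82.9% uninduced and 83.4%, 82.3%, 84.7% and 85.2%, with intervals at most 10.5 points wide. The lowest PABPC1 level had the lowest share of the pair, and neither trend was called (limma, Benjamini-Hochberg adjusted p = 0.569 and 0.205).

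The ranges were as narrow where the distal site led. On chromosome 6, plus strand, sites 44221600 and 44221640 (40 nt apart, 9904 reads) had a proximal share of 7.74% to 13.6% over the 10 subsamples, with intervals up to 8.98 points wide. On chromosome 1, plus strand, sites 45244402 and 45244427 (6688 reads) lie 25 nt apart, the smallest distance, and had 9.60% to 15.2% (intervals up to 9.24 points). The chromosome 17 pair, plus strand, 16286054 and 16286079 (25 nt apart, 7123 reads), was led by its proximal site, with 79.7% to 84.6% of the reads (intervals up to 12.5 points).

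In the deeper PABP1212 library, 327 tandem pairs could be fitted alone; this set was chosen after seeing the data. limma called a trend of the proximal share for 3 of them, where 1.09% of all 551 pairs tested were called, and 23 had an unadjusted p under 0.05. All 3 are on the minus strand, and they had 676, 641 and 429 reads over both libraries. Without the lowest, the second-highest or the highest level 0 pairs were called, without the second-lowest 1 and without uninduced cells 3. With every pair that had a mean of 10 reads, limma called 5 of 1056 PABP1212 trends (4 higher, 1 lower; 0.41% of all pairs tested were called).

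The first of them lies on chromosome 10, at 101996912 (proximal) and 101996804 (distal), 108 nt apart. Its proximal share was 34.3% in uninduced cells (95% Clopper-Pearson interval 19.1% to 52.2%), and 69.6% (58.2% to 79.5%), 51.0%, 44.3% and 37.4% (29.8% to 45.5%) in rising order of PABP1212 level. The share fell with each level, by 0.58 ± 0.13 log2 per level (limma, Benjamini-Hochberg adjusted p = 0.00265), and the highest level lay close to uninduced cells. With PABPC1 the share was 52.5% at the lowest level on 40 reads (36.1% to 68.5%) and 18.5%, 31.6% and 46.2% above it, with intervals up to 61.9 points wide.

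On chromosome 9, sites 32553761 and 32553626 lie 135 nt apart. The proximal share was 92.6% uninduced (83.7% to 97.6%), 53.3% at the lowest level on 30 reads (34.3% to 71.7%), and 77.7%, 83.4% and 86.0% at the levels above. It rose by 0.69 ± 0.19 log2 per level (limma, Benjamini-Hochberg adjusted p = 0.0431). The lowest level stood apart from the other subsamples. The PABPC1 values, on 8 to 58 reads with intervals up to 67.0 points wide, were 90.9% uninduced and 62.5%, 79.3%, 82.8% and 90.5%.

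On chromosome 6, sites 18224817 and 18224385 lie 432 nt apart. The proximal share was 7.50% in uninduced cells (1.57% to 20.4%), 5.56%, 8.33% and 10.9% at the lower 3 levels and 27.7% (18.9% to 37.8%) at the highest. It rose by 0.95 ± 0.27 log2 per level (limma, Benjamini-Hochberg adjusted p = 0.0437), and the highest level lay above the other 4 subsamples. The PABPC1 library had 9 to 34 reads per subsample at this pair, too few for a comparison.

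**Figure D2:**
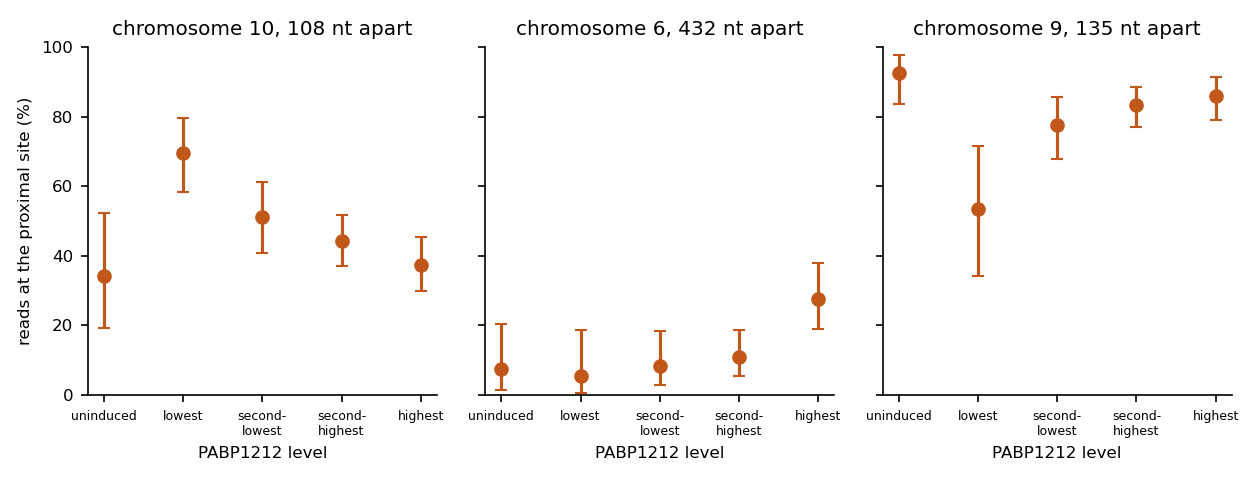
Proximal share in the PABP1212 library for the 3 pairs with a called trend, in uninduced cells and at the 4 levels; points are shares and bars are 95% Clopper-Pearson intervals. The share falls from 69.6% to 37.4% over the levels on chromosome 10, and the outlying points are the lowest level on chromosome 9 (53.3%) and the highest on chromosome 6 (27.7%).

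How much the proximal site was used went with the distance between the sites. At the highest PABP1212 level, the median proximal share of the 97 pairs was 81.8% for the 34 pairs 25 to 49 nt apart, 69.1% for the 19 pairs at 50 to 99 nt, 36.3% for the 21 at 100 to 199 nt and 58.6% for the 23 at 200 to 499 nt. In uninduced cells of the PABPC1 library the same medians were 77.8%, 71.8%, 41.2% and 54.2%. Pairs closest together thus ended mostly at the proximal site in both.

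The 327 pairs of the PABP1212 library had the same order up to 199 nt. At the highest level their medians were 71.3% (91 pairs, 25 to 49 nt), 55.0% (65 pairs), 43.4% (66 pairs) and 43.5% (105 pairs, 200 to 499 nt). The proximal site held more than 50% of the reads in 78.0%, 55.4%, 47.0% and 45.7% of them. For 58 pairs 500 to 4999 nt apart the median was 35.0% at that level. These passed the minimum in all 10 subsamples, as the 97 pairs did, so they do not extend the series of the 327 pairs. Each level repeats the same pairs, so these values are a description and were not tested.

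**Figure D3:**
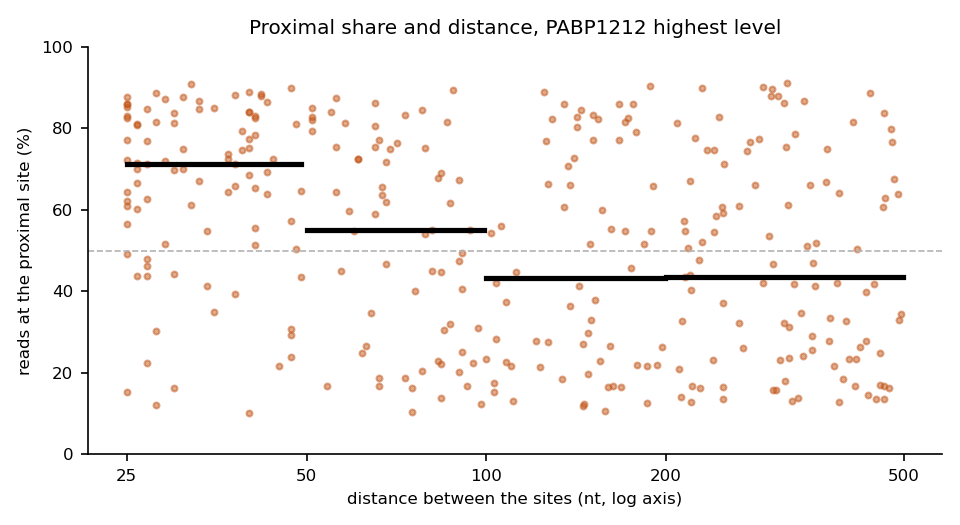
Proximal share at the highest PABP1212 level against the distance between the sites (log axis), for 327 tandem pairs. Black bars are medians of the pairs at 25 to 49, 50 to 99, 100 to 199 and 200 to 499 nt; they are 71.3%, 55.0%, 43.4% and 43.5%.

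Tails were compared in the 39 pairs with at least 10 reads at each site in all 10 subsamples, of which 33 shared no site. Reads from both sites had tails of much the same length. In uninduced cells the median tail was 93.5 nt at proximal and 93 nt at distal sites in the PABPC1 library, and 92 and 97 nt in the PABP1212 library. At the lowest level both were longer, at 111 and 113 nt with PABPC1 and 109 and 117 nt with PABP1212. At the highest level they were 98.5 and 98 nt with PABPC1 and 76 and 80 nt with PABP1212, so the highest PABP1212 level had shorter tails than uninduced cells at either site.

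Within pairs, the median difference between the tails (distal minus proximal) was 1 nt in uninduced cells of the PABPC1 library and 3, -5, 6 and 3 nt in rising order of its levels. With PABP1212 it was 3 nt uninduced and 6, -1, 2 and 1 nt over the levels. The distal tail was the longer one in 15 to 26 of the 39 pairs, fewest at the second-lowest PABPC1 level. Single pairs differed by more, with a median absolute difference of 5.5 to 16 nt.

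**Figure D4:**
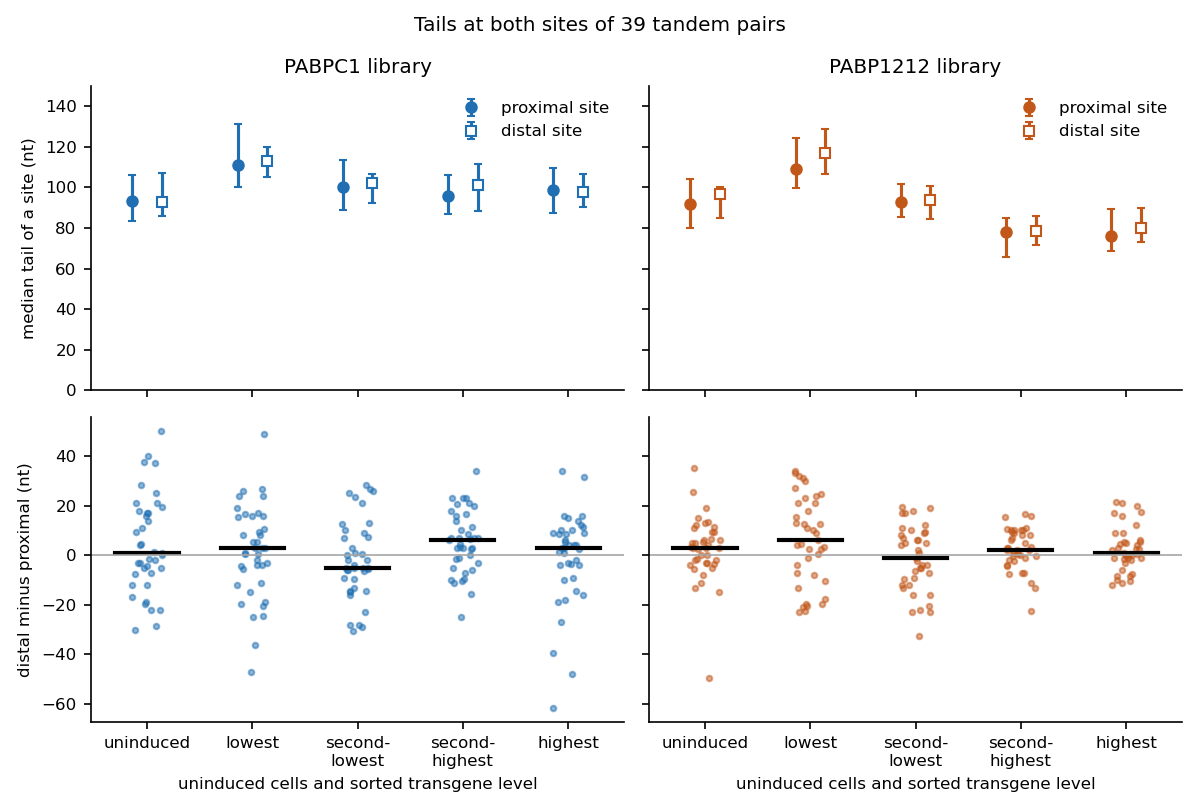
Tails of 39 tandem pairs in uninduced cells and at the 4 levels of each library. Top: median of the sites' median tails in nt, with bars for the quartiles over pairs; bottom: distal minus proximal tail of each pair in nt, with black bars for medians, which lie between -5 and 6 nt.

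The sites of a pair mostly went the same way at the lowest level of both libraries and at the second-highest and highest PABP1212 levels, and less clearly so at the other 4 levels. Relative to uninduced cells, both sites had longer median tails at the lowest level in 30 of 39 pairs with PABPC1 and in 32 of 39 with PABP1212. Counted singly, 35 proximal and 33 distal sites of the 39 pairs were longer with PABPC1, and 33 and 37 with PABP1212, where 82.1% and 91.0% of all 914 sites measured were longer. The median change was 19 nt at proximal and 17 nt at distal sites with PABPC1, and 20 and 21.5 nt with PABP1212. At the second-highest and highest PABP1212 levels both sites were shorter in 35 and 34 pairs, and no pair had both longer; of all sites, 86.7% and 83.8% were shorter. The median changes there were -16 and -15 nt at the second-highest level and -14 and -15 nt at the highest, for proximal and distal sites. At the second-lowest, second-highest and highest PABPC1 levels, 18, 19 and 21 of the 39 pairs had sites that went opposite ways or tied, and at the second-lowest PABP1212 level 20 had.

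The shares of short and long tails were followed in the same 39 pairs. Reads with tails under 30 nt made up a median of 4.03% at proximal and 3.92% at distal sites in uninduced PABP1212 cells, and 14.1% and 11% at the second-highest PABP1212 level. Tails of at least 150 nt were found on 13.4% and 15.2% of the reads in uninduced cells and on 32.4% and 35.5% at the lowest PABP1212 level. With PABPC1, tails under 30 nt made up 2.48% at proximal and 3.85% at distal sites in uninduced cells and 4.17% and 3.03% at the lowest level, so the sites went opposite ways there. These values were not tested.

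How far proximal and distal tails went together from pair to pair varied between subsamples. It was highest at the second-highest and highest PABP1212 levels, which were also the deepest (630986 and 578987 reads). The other subsamples did not all follow the order of depth, and a link to depth was not tested. Across the 39 pairs, Pearson's r between the proximal and the distal median tail was 0.82 and 0.80 at the second-highest and highest PABP1212 levels. It was 0.48 and 0.46 at the lowest and second-lowest PABP1212 levels and 0.58 in uninduced PABP1212 cells. With PABPC1 it was 0.38 in uninduced cells and 0.29, 0.45, 0.72 and 0.29 over the levels. The values describe pairs that share a library and differ in depth, and 6 of the 39 share a site with another pair.

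Over all 10 subsamples, limma found a tail difference in 3 of the 39 pairs (3 of 55 pairs tested, 5.45%, were called), with 8 at an unadjusted p under 0.05. In all 3 the distal tail was longer, and it was longer in each of their 10 subsamples. The median difference over the 39 pairs was 0.05 log2, positive in 27 and negative in 12. Leaving out the second-highest or the highest PABPC1 level removed all 3 calls, while leaving out the lowest PABP1212 level gave 6 (5 longer, 1 shorter). The PABP1212 library alone gave 0 limma calls in the same 39 pairs (8 at an unadjusted p under 0.05). The PABPC1 library alone gave 2, both longer (7 unadjusted). Both libraries gave 5 of 17, all longer, with only pairs 100 nt or more apart (9 unadjusted). Without tails under 10 nt they gave 7 of 39 (6 longer, 1 shorter). Among the 145 pairs with 10 reads per site in the PABP1212 subsamples, a set chosen after seeing the data, limma called 6, all with the longer distal tail (4.29% of all pairs tested were called), and 1 without the second-highest level.

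The chromosome 19 pair, on the plus strand at 49995100 and 49995565, is 465 nt apart, the widest of the 39, and had 9790 reads. Proximal tails had medians of 77 nt in uninduced cells and 100, 89, 72 and 76 nt in rising order of PABPC1 level, against distal medians of 95, 110.5, 89.5, 88.5 and 91 nt. With PABP1212, proximal medians were 80, 108, 77, 64 and 63 nt and distal ones 99, 117, 88, 74 and 79 nt in the same order. The distal tail was longer by 0.17 ± 0.03 log2 (limma, Benjamini-Hochberg adjusted p = 0.0151).

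The proximal share of the chromosome 19 pair was lower at each successive level in both libraries. It was 72.5% uninduced and 73.3%, 69.3%, 68.8% and 68.3% over the PABPC1 levels, and 69.5% uninduced and 66.4%, 66.2%, 63.7% and 62.8% over the PABP1212 levels, with intervals at most 11.4 points wide. The trends of -0.09 ± 0.08 and -0.09 ± 0.04 log2 per level were not called (limma, Benjamini-Hochberg adjusted p = 0.839 and 0.296).

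The chromosome 10 pair with the longer distal tail, on the plus strand at 79800455 and 79800495, is 40 nt apart and had 6170 reads. Proximal medians were 66 nt in uninduced cells and 94, 71.5, 72 and 76 nt over the PABPC1 levels, against distal medians of 94.5, 95, 100, 92 and 82 nt. With PABP1212 they were 71, 88, 76, 59 and 56 nt against 83, 91.5, 77, 70 and 61 nt. The difference of 0.26 ± 0.05 log2 was the largest of the 3 (limma, Benjamini-Hochberg adjusted p = 0.0151), although it came to 1 nt at the lowest PABPC1 and at the second-lowest PABP1212 level. Its proximal share stayed between 79.1% and 85.8%, with intervals at most 13.2 points wide.

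The chromosome 13 pair, on the minus strand at 45911270 and 45910955, is 315 nt apart and had 11526 reads, most of them proximal. Proximal medians were 80 nt in uninduced cells and 98, 89, 78 and 79 nt over the PABPC1 levels, against distal medians of 120, 115, 92, 92 and 95 nt, of which the uninduced one rests on 15 reads. The PABP1212 medians were 79, 98, 79, 63 and 62 nt against 83, 129, 83, 78.5 and 82 nt. The distal tail was longer by 0.19 ± 0.04 log2 (limma, Benjamini-Hochberg adjusted p = 0.0174).

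The proximal share of the chromosome 13 pair was 94.5% uninduced and 93.4%, 92.9%, 91.5% and 88.8% over the PABPC1 levels, and 87.9% uninduced and 89.3%, 88.5%, 87.1% and 86.3% over the PABP1212 levels, with intervals at most 5.77 points wide. It was lower at each successive level in both, but the trends of -0.29 ± 0.11 and -0.13 ± 0.05 log2 per level were not called (limma, Benjamini-Hochberg adjusted p = 0.168 and 0.197).

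**Figure D5:**
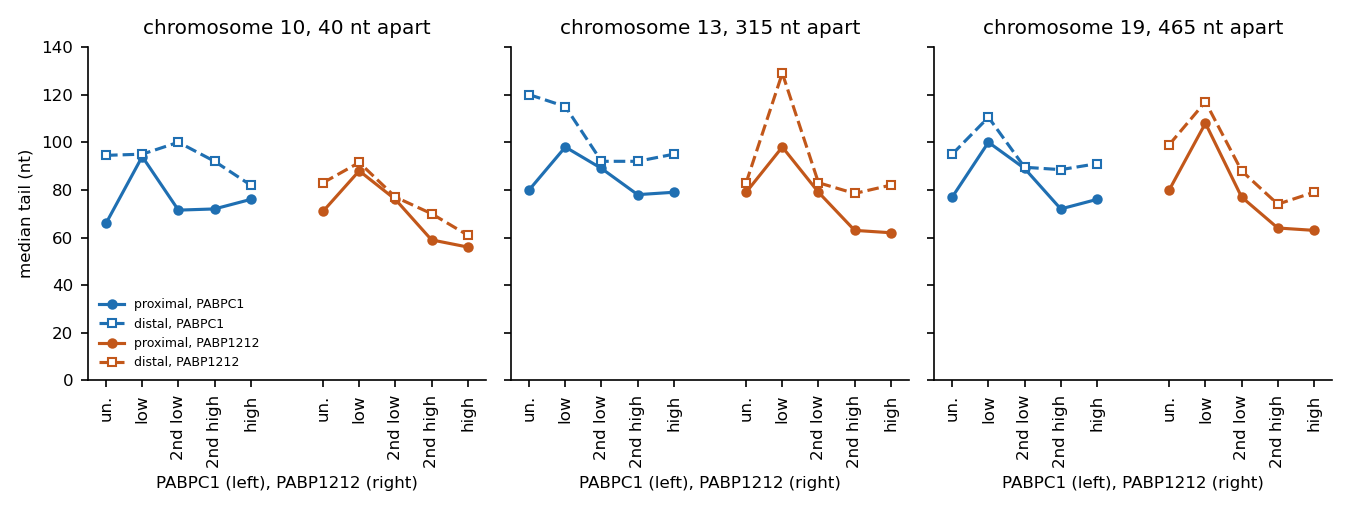
Median tail in nt at the proximal (filled circles) and distal (open squares) site of the 3 pairs with a called tail difference, in uninduced cells (un.) and at the levels of each library in rising order (low to high). The distal tail is the longer one in all 10 subsamples of each pair, by 0.5 to 40 nt.

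At the other pairs with the most reads no tail difference was called over the 10 subsamples. The chromosome 16 pair had proximal tails of 72 nt uninduced and 101.5, 88, 80 and 73 nt over the PABPC1 levels, against 76.5, 97.5, 84, 73 and 77 nt at the distal site, and the distal tail was longer in 3 of 10 subsamples (-0.02 ± 0.04 log2, limma, Benjamini-Hochberg adjusted p = 0.714). The chromosome 2 pair had a difference of 0.06 ± 0.03 log2 and the chromosome 17 pair one of 0.08 ± 0.05 (limma, Benjamini-Hochberg adjusted p = 0.307 and 0.338). At the chromosome 6 pair 40 nt apart, the distal median was shorter in 7 of 10 subsamples, with a mean log2 difference of 0.05 ± 0.07. In simulated data of 55 pairs, 20 of them with a difference, the fit recovered 5% of differences of 0.1 log2, 65% of 0.2 and 100% of 0.5.

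No trend of the tail difference over the levels was called. For this trend, limma called 0 of 39 pairs with PABPC1, 0 with PABP1212 and 0 for the difference between them, with 0 at an unadjusted p under 0.05 in each and 0% of all 55 pairs called. For sorted against uninduced cells it called 0 of 39 in each library and 0 for the difference between libraries (0, 1 and 1 unadjusted; 0% of all pairs called). The slope of the median difference was 1.1 nt per level for PABPC1 (two-sided exact permutation p = 0.833) and -1.2 nt for PABP1212 (exact p = 0.5). The median standard error of a pair's trend was 0.11 log2 per level with PABPC1 and 0.06 with PABP1212, which bounds what these depths could show.

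Tails at most single tandem sites were shorter with rising level in both libraries, and limma called such trends for PABP1212 only. Of 914 sites with 10 or more reads in all subsamples, 173 were tandem, and their median tails were 97 nt in uninduced PABP1212 cells and 120, 96, 80 and 83 nt over the levels. The other 741 sites had 94, 120.5, 97, 80 and 82 nt. The trend was negative at 166 of the 173 tandem sites with PABP1212 and at 144 with PABPC1. Of all 914 sites, 885 and 744 were negative. The median trend of the tandem sites was -0.14 log2 per level with PABP1212 (median standard error 0.08) and -0.07 with PABPC1 (0.15). limma called a PABP1212 trend for 25 of the 173 tandem sites (14.5%), all shorter with level, where 15.2% of all 914 sites were called; after each subsample's median over all sites was subtracted limma called 0 (17 at an unadjusted p under 0.05), and without tails under 10 nt 89. For PABPC1 it called 0 of 173 (1 unadjusted; 0% of all sites), and for the difference between the trends 0 (0 unadjusted; 0%). The count depends on single subsamples: without the lowest PABP1212 level 0 of 173 tandem sites were called, without the second-lowest 2, without the second-highest 95 and without the highest 127, and without the lowest or highest PABPC1 level 16 and 11. The share of all 914 sites called is given here for the main fit only. The counts under other settings thus do not set tandem sites apart from the rest.

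By role, the calls fell on 16 of 90 proximal, 0 of 6 middle and 9 of 77 distal sites. In the 39 pairs measured at both sites, both were called in 3, the proximal one alone in 10, the distal one alone in 5 and neither in 21. A call at 1 member alone does not show that the members differ, and the trend of the difference was called in no pair. The median trends were -0.14 log2 per level at proximal and -0.13 at distal sites, with median standard errors of 0.09 and 0.08.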

How the data were processed

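The members and lists were chosen with earlier results of these data known. In the deposited tables each read has its subsample, its poly(A) site and a tail length, per the file headers, taken here as nt from its values. Tools given in the submitters' processing notes are Bowtie2 and minimap2, beside the build hg38; the tail caller is not given in the sources used here. Per the deposited barcode table, 3 barcodes were merged per sorted level and 1 per uninduced subsample. Reads of unlisted sample names (2.86% of the PABPC1 and 5.63% of the PABP1212 library) were not used.

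Reads were counted here per site. The share entered limma as log2((proximal + 0.5)/(distal + 0.5)) and the tail as the mean of log2(nt + 1), weighted by reads, with terms for library and, within each library, for sorted against uninduced cells and for the centred rank of the level (4 residual degrees of freedom). Adjustment was Benjamini-Hochberg over all neighbouring pairs under 5000 nt apart (155 for shares, 55 for tails) or all 914 sites. The PABP1212 pairs fitted alone left 2 residual degrees of freedom. The estimated prior degrees of freedom were infinite for shares, and also for tails of the PABP1212 pairs fitted alone. In those fits a pair's error depends on its reads and the spread pooled over pairs. For tails in the main analysis the prior was 6.18. Fits were tested on simulated data. Pairs were named by a rule: the 6 with the most reads that pass the tail minimum, called ones with the largest coefficients, and the closest and widest; the PABP1212 pairs fitted alone were chosen after their values were seen. Alternatives are in the closing section. Tools were R 4.3.3, limma 3.58.1, Python 3.11.15, SciPy 1.17.1, pandas 2.3.3, Matplotlib 3.10.9 and NumPy 2.4.6.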

Additional observations from a re-analysis of the deposited data

How the results depend on the processing

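No paired analysis was possible because each library is 1 sample and no level was repeated. Depth of the PABPC1 library limits both the pairs compared and the trends that could be called. Calls of a tail difference, 3 of 39 pairs in the main analysis, became 0 of 39 with the PABP1212 library alone and 2 with the PABPC1 library alone. They were 5 of 39 without weights, 5 of 17 with only pairs 100 nt or more apart and 6 of 145 in the PABP1212 pairs fitted alone, all longer. Without tails under 10 nt they were 7 of 39 (6 longer, 1 shorter). The share over all pairs tested was 5.45% in the main analysis and 4.29% in the PABP1212 pairs fitted alone, and is not given for the other settings. The library-alone and PABP1212-alone settings of that result were chosen after seeing the data. For these calls the causes were not tested, nor for those below. Leave-one-out counts ran from 0 to 6. Trend calls of the PABPC1 share, 0 in the main analysis, became 1 with 50 reads per pair and 1 with that library alone (0 to 1 on leaving out a subsample); those of PABP1212 became 5 of 1056 pairs with a mean of 10 reads (4 higher, 1 lower) and 3 in its own 327 pairs (0 to 3 on leaving out). Share changes from uninduced cells became 2 for PABPC1 without weights, and 0 to 1 for PABP1212 on leaving out a subsample; the difference of share trends also gave 0 to 1. Calls of PABP1212 site trends, 25 of 173 tandem sites, became 0 after each subsample's median was subtracted and 89 without tails under 10 nt, and ran from 0 to 127 on leaving out a subsample (0 to 19 for the difference between libraries). The shares over all sites are not given for these settings.

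Slopes of median shares were near 0 and changed sign. The PABPC1 slope became 1.91 points per level with 50 reads per pair, 0 with a mean of 10 reads, 4.23 at 100 nt or more and 0.600 for pairs that share no site (-0.699 to 0.553 on leaving out). The PABP1212 slope became -0.575 with 50 reads (-0.0107 to 1.01 on leaving out). Their mean, 0.185, became 2.47 at 100 nt or more, with a joint exact permutation p = 0.0104 (-0.155 to 0.492 on leaving out), and their difference, 0.410, became -2.49 with 50 reads, -3.52 at 100 nt or more and -0.596 without shared sites (-0.163 to 1.09). For tail differences, the mean slope of both libraries, -0.05 nt per level, became 1.15 with 20 reads per site, 0.1 at 100 nt or more and 0.85 without shared sites (-0.493 to 1.4 on leaving out). The PABP1212 slope ran from -2 to 1 on leaving out a subsample. The difference between libraries, -2.3, became -3.6 with 20 reads per site (exact permutation p = 0.0174). Of the 3 pairs with longer distal tails, the chromosome 19 call kept its side of the threshold under 16 of 19 alternatives, the chromosome 10 call under 15 of 18 and the chromosome 13 call under 12 of 18, with the distal tail longer in all of them.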

Other observations

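The chromosome 10 pair whose proximal share fell over the PABP1212 levels (108 nt apart) had very short tails at both sites. With PABP1212 its proximal median was 4 nt in uninduced cells and 8, 7, 7 and 8 nt over the levels, and its distal median 11 nt and 10, 10, 10.5 and 10 nt. Reads with tails under 30 nt made up 95.1% to 100% at both sites there. Its tails were thus as short at the lowest level, where most other tails were longest, as at the highest. Of 607 tandem sites with 10 or more reads in all 5 PABP1212 subsamples, these were the 2 with a median under 20 nt in each, beside 3 of 2111 other sites.

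When the 145 pairs with 10 reads per site in the PABP1212 subsamples were fitted alone, limma called a tail difference in 6 (4.29% of all 233 pairs tested were called), and the distal tail was longer in all. They were the 3 pairs named in the report, the 108 nt pair on chromosome 10 and a pair each on chromosomes 9 and 1, chosen here after their values were seen. In this fit the error of a pair came from its reads and the spread pooled over pairs, not from its own spread. On chromosome 9, plus strand, sites 136218271 and 136218299 (28 nt apart) differed by 0.29 ± 0.07 in mean log2, yet their medians over the PABP1212 subsamples were 76, 79, 87, 55 and 69.5 nt at the proximal and 79, 111, 75, 62 and 59 nt at the distal site, longer at either in turn. On chromosome 1, plus strand, sites 45244375 and 45244402 (27 nt apart) differed by 0.44 ± 0.09. Their medians over the PABP1212 subsamples were 79.5, 102, 97, 47 and 57.5 nt at the proximal and 85, 91.5, 93, 63.5 and 60 nt at the distal site. Over both libraries the distal median was the longer one in 5 of 10 subsamples. There, 11.9% to 30.6% of proximal and 3.30% to 21.3% of distal reads had tails under 30 nt in the PABP1212 subsamples. The part of such short tails in these 2 differences was not tested.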
